A study of Vitis vinifera with 15 samples.

Results

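The comparison covered here is that of the skin of Shine Muscat with the skin of Victoria, and its members are the 6 of the 15 libraries that the labels give to these cultivars, 3 of each. Skins of 5 table grape cultivars (Vitis vinifera) were sequenced after polyadenylated RNA had been captured from total RNA, according to the methods, and the deposited table holds 1 expression value per gene and library. Shine Muscat is a green-skinned cultivar with a muscat aroma that also has Vitis labrusca in its pedigree. Victoria is green-skinned too and has a neutral aroma, and it is the control of the study. Midknight Beauty and Centennial Seedless, which have a muscat aroma too, and Summer Black, with a strawberry aroma, are called the other aromatic cultivars and served only to place a gene among the 5. All vines grew in 1 vineyard, and a sample joined bunches from several vines. The labels, and the results and sequencing summary of the study, give every library as a replicate of the ripening stage. The methods, however, also assign the numbers 1 to 3 to successive sampling times, and these readings cannot be told apart here. The p-values below therefore measure the spread between these libraries, whatever its source. Each side of this comparison is 1 cultivar, so aroma and every other difference between the cultivars cannot be told apart.

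Grape aroma draws on several pathways. Monoterpenes, the floral compounds of muscat grapes, are built from the plastid MEP pathway, which DXS (deoxyxylulose phosphate synthase) opens, an enzyme known in grapevine for its link to muscat aroma, and are finished by terpene synthases (TPS), a large family in grapevine. UDP-glycosyltransferases (UGT) attach sugars to terpenes and phenols and make them odourless, and beta-glucosidases (BGLU) remove such sugars. Cinnamoyl-CoA reductases (CCR), cytochromes P450 (CYP), alcohol dehydrogenases (ADH) and short-chain dehydrogenases (SDR) act on phenylpropanoids, aldehydes and alcohols. MYB and GATA proteins are transcription factors that bind DNA near the genes they control. Gene names below are those that the study pairs with an identifier. All other genes stay as identifiers of the annotation of the reference line PN40024. In these, the digits before the s give the chromosome (00 for an unplaced sequence). Those between the s and the g give a scaffold, and those after the g follow the order of the genes along that scaffold.

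Values are FPKM (fragments of a transcript scaled to its length and to the mapped fragments of the library), and read counts per gene were not used, so no counting error is given. The study states the mapped reads of each library, of which Shine Muscat replicate 1 has the fewest of all 15. A value of 0 is given as listed at 0, and no fold is given against a cultivar whose libraries are all listed at 0. The 6 libraries summed to between 718652 and 785002 FPKM. The 5 highest genes took 9.79% to 10.2% of this sum in Shine Muscat and 11.1% to 15.9% in Victoria. In the sequencing summary of the study, Shine Muscat replicate 1 also stands apart with by far the lowest share of mapped reads, so results are also given without it. The Shine Muscat libraries lay closer to each other than the Victoria libraries. The root mean square difference between 2 libraries, on the log2(FPKM + 1) scale over the genes tested, was 0.295 to 0.373 within Shine Muscat and 0.440 to 0.693 within Victoria, with 29 to 52 and 62 to 374 genes past 4-fold. Between a Shine Muscat and a Victoria library it was 0.774 to 0.962, with 510 to 959 genes past 4-fold. The tissue label was not checked, since the annotation used here did not tie the identifiers of the table to markers of skin, pulp or seed.

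Of the 31924 genes listed, 18238 reached 1 FPKM in at least 3 of the 15 libraries and were tested with limma on log2(FPKM + 1). This scale understates the change of genes with low values. A gene read in only 1 cultivar met the limit of 1 FPKM through that cultivar alone, so its p is not independent support. Genes were called differentially expressed (DEGs) when the log2 fold change of Shine Muscat over Victoria was 2 or more in size and the adjusted p was 0.01 or less. There were 416 DEGs (2.28% of the genes tested), of which 229 (1.26%) were higher in Shine Muscat and 187 (1.03%) were lower. Fewer cells of a type and less RNA per cell cannot be told apart in such bulk samples. The higher DEGs had a median of 13.97 FPKM in Shine Muscat and 0.861 FPKM in Victoria, and the lower ones 0.783 FPKM in Shine Muscat and 12.45 FPKM in Victoria. Most changes were near the threshold: 150 of the higher and 136 of the lower DEGs had a log2 fold change between 2 and 3 in size, and 22 and 11 passed 4. Victoria was listed at 0 in all 3 libraries for 30 of the higher DEGs, and Shine Muscat for 31 of the lower ones. For every DEG the Shine Muscat libraries lay wholly above or below those of Victoria, but this held for 44% of all genes tested.

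The median log2 fold change of all genes tested was 0.10, and changes are to be read relative to it. Dividing each library by a median-of-ratios size factor moved that median to -0.01 and turned the balance round, to 187 higher and 219 lower DEGs, and quantile normalization gave 206 higher and 210 lower. The balance of directions thus depended on the scaling. Without Shine Muscat replicate 1 the count fell to 262 DEGs, 151 higher and 111 lower. Without Shine Muscat replicate 2 or 3 it was 343 or 284. Without Victoria replicate 1, 2 or 3 it was 484, 338 or 459. In each of the 6 fits that left out 1 library, 136 of the 229 higher and 90 of the 187 lower DEGs passed again.

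**Figure D1:**
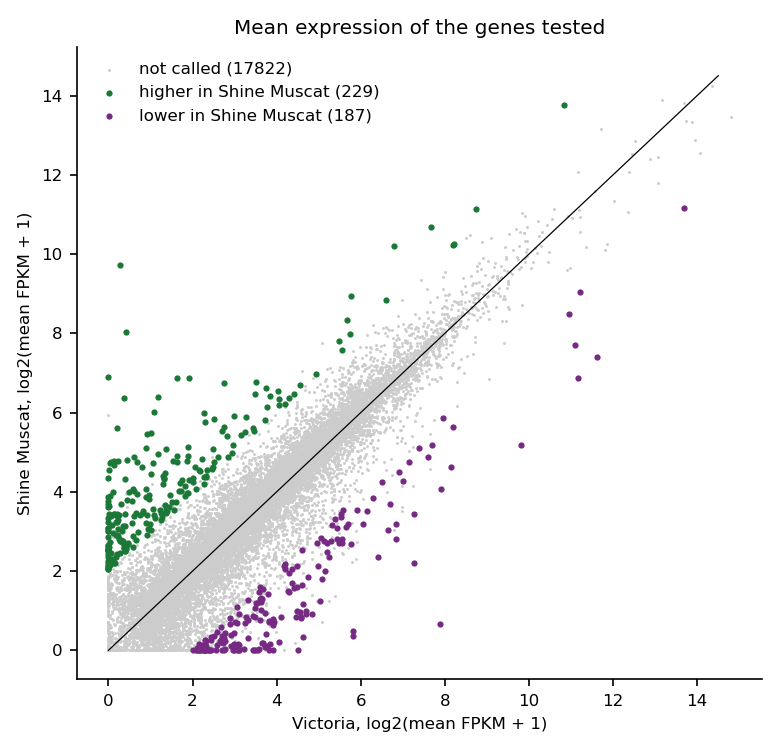
Mean expression of the 18238 genes tested, Shine Muscat on the vertical and Victoria on the horizontal axis, both as log2(mean FPKM + 1), with the line of equal values. The 229 higher DEGs (green) lie above the line mostly where Victoria is near 0, and the 187 lower DEGs (purple) lie below it.

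The study names 20 candidate aroma genes, and each was among the genes tested. Of these, 10 were DEGs, 7 higher and 3 lower in Shine Muscat, and 14 had an adjusted p of at most 0.01, which 9.69% of all genes tested reached (6.12% higher and 3.57% lower). Their median log2 fold change was 1.03, against 0.10 over all genes tested. The list was chosen by the study on these same libraries, so its share is not independent evidence. Without Shine Muscat replicate 1, 9 of the 20 were DEGs.

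Of the terpenoid genes, DXS and 1 TPS were higher in Shine Muscat, and another pair of TPS was lower. DXS (VIT_05s0020g02130) rose and had 88.7, 71.4 and 86.2 FPKM in Shine Muscat, against 16.3, 16.2 and 23.2 FPKM in Victoria. Every Shine Muscat library was above every Victoria library, and the log2 fold change was 2.10 with an SE of 0.17 (adjusted p = 0.000667). This value lies close to the threshold, and after median-of-ratios scaling (1.96) or quantile normalization (1.98) it was no longer a DEG. DXS was also above the other aromatic cultivars, which had 22.9 to 36.9 FPKM over their 9 libraries, with a log2 fold change of 1.35 with an SE of 0.15 (adjusted p = 0.000177) that stayed under the threshold of 2.

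The 6 TPS candidates did not move together. TPS VIT_00s0271g00010 rose and had 26.2, 31.4 and 28.5 FPKM in Shine Muscat, against 4.34, 6.12 and 4.74 FPKM in Victoria. The Shine Muscat libraries were high and narrowly spread, with a log2 fold change over Victoria of 2.30 with an SE of 0.15 (adjusted p = 0.000349). In Victoria it was in turn above the other aromatic cultivars, where its 9 libraries had 0 to 0.912 FPKM, and the log2 fold change of Shine Muscat over these was 4.58 with an SE of 0.23 (adjusted p = 1.07e-07). TPS VIT_13s0067g00050 fell, with 0, 0 and 0.0667 FPKM in Shine Muscat, against 3.85, 4.798 and 2.47 FPKM in Victoria, and the log2 fold change was -2.17 with an SE of 0.20 (adjusted p = 0.00113). It had at most 0.201 FPKM in the other aromatic cultivars, so it passed the filter through Victoria alone. TPS VIT_13s0084g00010 was listed at 0 in all 3 Shine Muscat libraries, against 3.84, 3.23 and 3.27 FPKM in Victoria (adjusted p = 0.000182), and had 3.06 to 11.9 FPKM in Summer Black. Both were read in Victoria and hardly or not in Shine Muscat. TPS newGene_3216, which the authors assembled from the reads, had 3.76, 0.2096 and 2.59 FPKM in Shine Muscat, against 0.0233, 0 and 0 FPKM in Victoria, with an adjusted p of 0.0777 and Shine Muscat replicate 2 far below the others. Without that library its log2 fold change was 2.04 and it was a DEG. TPS VIT_13s0067g00370 and VIT_13s0067g00380 were listed at 0 in all Shine Muscat libraries and at most 0.254 FPKM in Victoria. They passed the filter through Summer Black, with 5.67 to 26.6 and 6.61 to 27.1 FPKM. Of the 7 terpenoid genes, 4 were DEGs, 2 in each direction, against 2.28% of all genes tested. Their median log2 fold change of 0 is that of VIT_13s0067g00380, which was at 0 in all 6 libraries, and describes neither cultivar. TPS genes can be close copies of each other, so how the authors' counting divided reads among them is uncertain. How alike these candidates are was not tested.

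The primers that the study used for quantitative PCR are printed for the 3 TPS DEGs, as the sequences by which the study assayed them, and for VIT_13s0067g00370 and VIT_13s0067g00380, whose primers shared 22 bases on either side. Stretches of at least 12 bases that a primer shares, as written, with a primer of another candidate are in capitals, and all are written 5′ to 3′ as in the primer list. Primers lie at different places of their genes, so a primer without capitals says nothing of how alike the genes are.
TPS VIT_00s0271g00010 forward primer: atcccagatccaaggttgtcaga
TPS VIT_00s0271g00010 reverse primer: gagtgagttcatcaagggttcca
TPS VIT_13s0067g00050 forward primer: aagaagacgcccgtaaacac
TPS VIT_13s0067g00050 reverse primer: ggaatgggctcaatgagtag
TPS VIT_13s0084g00010 forward primer: aggagaaagtaccttggagcag
TPS VIT_13s0084g00010 reverse primer: gaaccaccttgcctctaacc
TPS VIT_13s0067g00370 forward primer: aGATGTTGTTGACAGGTGGGATA
TPS VIT_13s0067g00370 reverse primer: AAGCCATTTCATTAGTGGAGTTgta
TPS VIT_13s0067g00380 forward primer: GATGTTGTTGACAGGTGGGATA
TPS VIT_13s0067g00380 reverse primer: AAGCCATTTCATTAGTGGAGTT

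Of the 3 genes of terpene glycosides, 2 were DEGs, both higher in Shine Muscat, against 2.28% of all genes tested. The list's median log2 fold change was 2.75, against 0.10 over all genes tested. UGT VIT_17s0000g07070 had 6.75, 13.1 and 8.42 FPKM in Shine Muscat, against 0.155, 0.179 and 0.145 FPKM in Victoria. Victoria was low in every library, and the log2 fold change was 3.12 with an SE of 0.24 (adjusted p = 0.000568). The gene had 11.6 to 15.7 FPKM in Midknight Beauty, 13.5 to 16.4 FPKM in Centennial Seedless and 0.802 to 2.26 FPKM in Summer Black. Its neighbour UGT VIT_17s0000g07060 stood the other way round, with 0.0321, 0.0626 and 0.08697 FPKM in Shine Muscat, against 1.97, 3.74 and 2.81 FPKM in Victoria. Its log2 fold change of -1.83 with an SE of 0.18 (adjusted p = 0.00149) passed the test but not the fold threshold. BGLU VIT_03s0063g02490 had 64.4, 55.8 and 55.05 FPKM in Shine Muscat, against 3.96, 8.67 and 13.2 FPKM in Victoria. The groups were far apart although the Victoria libraries spread widely, and the log2 fold change was 2.75 with an SE of 0.36 (adjusted p = 0.00387). It was a DEG in 2 of the 6 fits that left out 1 library, and not without Shine Muscat replicate 1. With the replicate number as a block it missed the threshold too (adjusted p = 0.0127), as it did with no filter on low values (adjusted p = 0.0161), which left 1 DEG of the 3 genes in either case. In Centennial Seedless it had 54.4 to 83.6 FPKM, a range that includes the Shine Muscat values. Midknight Beauty had 8.05 to 12.1 FPKM, within the range of the Victoria libraries, and Summer Black 21.2 to 26.6 FPKM.

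Among the 7 phenylpropanoid and alcohol enzymes, 1 DEG rose and 1 fell, while 2.28% of all genes tested were DEGs. The list's median log2 fold change was 0.61, against 0.10 over all genes tested. The rise was that of ADH VIT_00s0615g00010, with 27.1, 26.5 and 23.2 FPKM in Shine Muscat, against 0.0745, 0 and 0 FPKM in Victoria. It was high in each Shine Muscat library and at or near 0 in Victoria, and the log2 fold change was 4.70 with an SE of 0.14 (adjusted p = 4.51e-05). The other aromatic cultivars had 0 to 6.37 FPKM, and the log2 fold change of Shine Muscat over these was 3.42 with an SE of 0.61 (adjusted p = 0.00435). Its neighbours on the same unplaced sequence did not pass the test. ADH VIT_00s0615g00020 had 1.39, 1.23 and 1.11 FPKM in Shine Muscat, against 0.3604, 0.2604 and 0.8498 FPKM in Victoria (adjusted p = 0.0452), and ADH VIT_00s0615g00030 had 14.7, 16.02 and 13.98 FPKM in Shine Muscat, against 6.22, 10.8 and 12.5 FPKM in Victoria (adjusted p = 0.128). This last ADH was higher in the other aromatic cultivars, at 25.6 to 58.99 FPKM, and the log2 fold change of Shine Muscat over these was -1.25 with an SE of 0.23 (adjusted p = 0.00569). The primers of the 3 ADH genes are shown because VIT_00s0615g00020 and VIT_00s0615g00030 had 1 common reverse primer, in capitals.
ADH VIT_00s0615g00010 forward primer: gcaagaagaaggaagccatagaa
ADH VIT_00s0615g00010 reverse primer: ggaagaagagggtgaacagcaga
ADH VIT_00s0615g00020 forward primer: aaagttggtgttgggtgtctg
ADH VIT_00s0615g00020 reverse primer: GTGGTGGTTCCATCATAGTAAGTG
ADH VIT_00s0615g00030 forward primer: gattgtaggcatagtgacagagg
ADH VIT_00s0615g00030 reverse primer: GTGGTGGTTCCATCATAGTAAGTG

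The fall was that of CYP VIT_08s0007g07730, with 9, 8.48 and 7.07 FPKM in Shine Muscat, against 60.9, 56.7 and 78.4 FPKM in Victoria, and the log2 fold change was -2.85 with an SE of 0.16 (adjusted p = 0.000203). It ranged from 5.18 to 37.8 FPKM over the other aromatic cultivars, all below Victoria. SDR VIT_08s0040g01200 had 93.1, 106 and 98.8 FPKM in Shine Muscat, against 37.4, 23.2 and 29.3 FPKM in Victoria, and its log2 fold change of 1.72 with an SE of 0.17 (adjusted p = 0.00147) passed the test below the fold threshold. The 2 CCR genes stood in opposite directions in the same way. CCR VIT_13s0067g00620 had 4.02, 2.24 and 4.48 FPKM in Shine Muscat, against 0.458, 0.544 and 0.248 FPKM in Victoria, and the log2 fold change was 1.66 with an SE of 0.23 (adjusted p = 0.00432). CCR VIT_13s0047g00940 had 13.5, 13.1 and 11.9 FPKM in Shine Muscat, against 27.3, 26.4 and 28.2 FPKM in Victoria, and the log2 fold change was -1.03 with an SE of 0.10 (adjusted p = 0.00127). Victoria was above every library of the other cultivars in VIT_13s0047g00940, where these had 9.08 to 14.2 FPKM.

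Of the 3 transcription factors, 2 were DEGs, both higher in Shine Muscat, against 2.28% of all genes tested. The list median was 2.36, against 0.10 over all genes tested. GATA VIT_15s0024g00980 had 10.1, 8.69 and 9.97 FPKM in Shine Muscat, against 0.221, 0.175 and 0.188 FPKM in Victoria, and the log2 fold change was 3.15 with an SE of 0.13 (adjusted p = 0.000135). It had 7.85 to 10.04 FPKM in Midknight Beauty, 0.723 to 1.199 FPKM in Centennial Seedless and 2.97 to 5.04 FPKM in Summer Black. MYB VIT_17s0000g07950 had 20.9, 14.1 and 20.8 FPKM in Shine Muscat, against 2.77, 2.59 and 2.98 FPKM in Victoria, and the log2 fold change was 2.36 with an SE of 0.19 (adjusted p = 0.00067). The other aromatic cultivars had 4.08 to 19.5 FPKM, above Victoria and reaching into the Shine Muscat range. MYB VIT_03s0063g02620 was lower in every Shine Muscat library, with 1.58, 1.25 and 1.34 FPKM in Shine Muscat, against 4.68, 86.3 and 19.2 FPKM in Victoria. The Victoria libraries spread widely, and its log2 fold change of -3.18 with an SE of 0.91 (adjusted p = 0.0498) did not pass the test. Without Victoria replicate 1 it was a DEG, at -4.14.

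**Figure D2:**
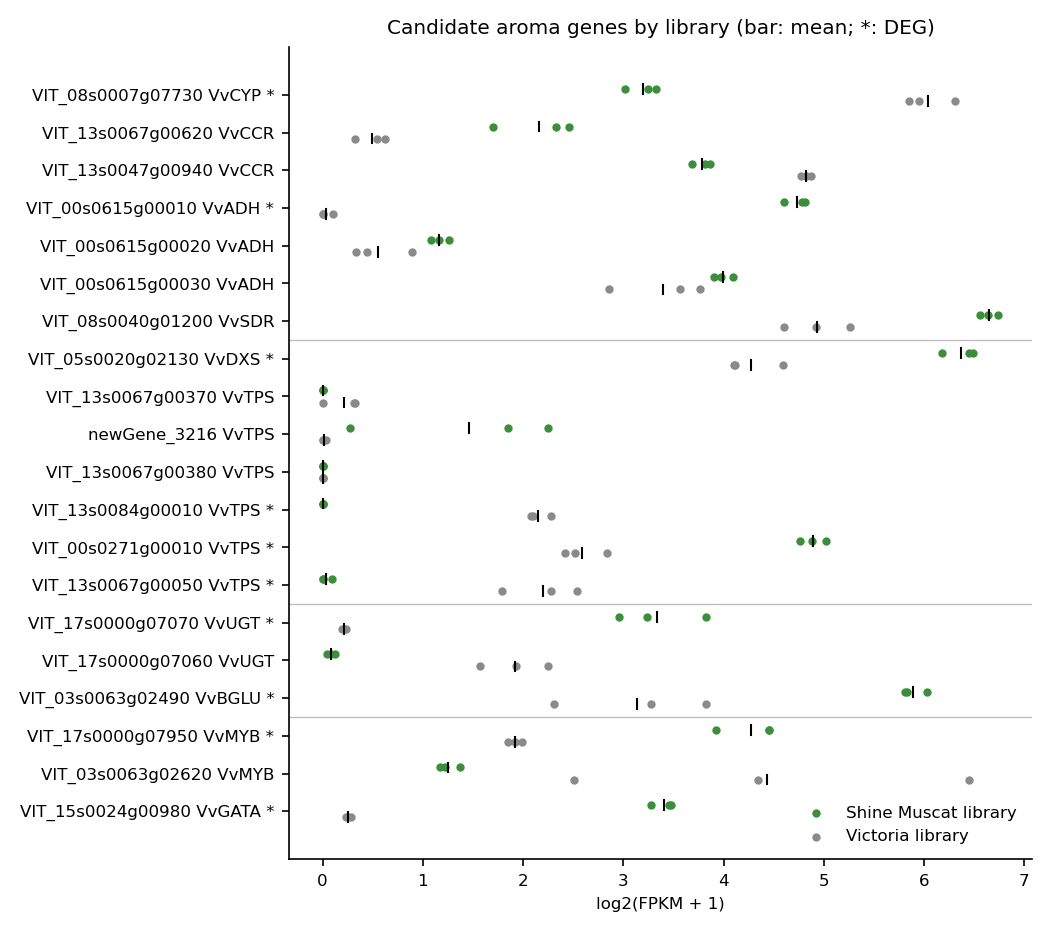
The 20 candidate genes by library, as log2(FPKM + 1), with Shine Muscat (green) above Victoria (grey) in each row, a bar at the mean and an asterisk for a DEG. From top to bottom the blocks are phenylpropanoid and alcohol enzymes, terpenoid enzymes, terpene glycosides and transcription factors. The 10 DEGs show no overlap between the cultivars, which held for every DEG and for 44% of all genes tested.

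The study tabulates 14 further genes without a name, and 5 of these were DEGs, each lower in Shine Muscat, against 2.28% of all genes tested. With an adjusted p of at most 0.01 as the only criterion there were 9, against 9.69% of all genes tested, and 3 of the 9 were higher in Shine Muscat. The median log2 fold change over the 14 was -0.92. This list too was chosen on these libraries. VIT_07s0005g01030 had 2.35, 2.23 and 1.89 FPKM in Shine Muscat and was listed at 0 in every Victoria library (adjusted p = 0.000319). VIT_03s0063g00450 had 2.21, 2.62 and 1.88 FPKM in Shine Muscat, against 0, 0.133 and 0 FPKM in Victoria, and the log2 fold change was 1.63 with an SE of 0.13 (adjusted p = 0.000684). VIT_01s0011g06260 had 56.3, 59.3 and 56.5 FPKM in Shine Muscat, against 22.4, 20.1 and 20.8 FPKM in Victoria, and the log2 fold change was 1.40 with an SE of 0.08 (adjusted p = 0.000264). These 3 rises passed the test below the fold threshold. VIT_16s0022g01160 had 0, 0.134 and 0.249 FPKM in Shine Muscat, against 11.3, 10.1 and 13.9 FPKM in Victoria, and the log2 fold change was -3.50 with an SE of 0.18 (adjusted p = 0.000182). Its neighbour VIT_16s0022g01150 had 0, 0.698 and 0.653 FPKM in Shine Muscat, against 4.08, 3.12 and 4.85 FPKM in Victoria. newGene_3002 was listed at 0 in all 12 libraries other than Victoria, which had 5.91, 7.03 and 4.33 FPKM (adjusted p = 0.00032). It passed the filter through Victoria alone, so this p is not independent support. VIT_06s0004g02060 had 0.869, 1.12 and 1.07 FPKM in Shine Muscat, against 8.01, 13.1 and 12.9 FPKM in Victoria, and the log2 fold change was -2.58. VIT_12s0035g00010 had 3.95, 1.59 and 2.19 FPKM in Shine Muscat, against 13.8, 27.4 and 36.9 FPKM in Victoria, and was a DEG in 2 of the 6 fits that left out 1 library, not without Shine Muscat replicate 1. The remaining DEG, VIT_19s0015g02880, was among the highest genes of Victoria and is given with its neighbours. VIT_04s0079g00690 was listed at 0 in every Shine Muscat library and reached 0.0553 FPKM in 1 Victoria library, while it had 304 to 697 FPKM in Midknight Beauty and 360.1 to 1644 FPKM in Summer Black.

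The largest rise of any gene was that of VIT_03s0017g02260, with 1091, 613 and 814 FPKM in Shine Muscat, against 0, 0.371 and 0.269 FPKM in Victoria, and the log2 fold change was 9.41 with an SE of 0.23 (adjusted p = 3.69e-05). Of the other cultivars Summer Black had the most, at 10.8 to 41.6 FPKM. VIT_05s0077g02020 had 269.8, 254 and 254 FPKM in Shine Muscat, against 0.451, 0.457 and 0.0927 FPKM in Victoria. It was shared with Summer Black, at 172 to 292 FPKM, and was at most 1.53 FPKM in the rest. VIT_18s0001g01470 had 80.6, 79.8 and 83.2 FPKM in Shine Muscat, against 0.0711, 0.317 and 0.5098 FPKM in Victoria, and the other aromatic cultivars had 0.406 to 1.11 FPKM, and the log2 fold change of Shine Muscat over these was 5.54 with an SE of 0.15 (adjusted p = 4.67e-10). VIT_16s0013g02160 had 89.8, 160.3 and 104 FPKM in Shine Muscat and was listed at 0 in every Victoria library. The libraries of the other cultivars ranged from 0 to 208 FPKM, each cultivar with at least 1 library at 0, and in the fit of all 5 cultivars it was not a DEG (adjusted p = 0.0314). VIT_11s0052g01730 and VIT_13s0019g00330 had 114, 126 and 110.5 FPKM and 129, 109 and 113 FPKM in Shine Muscat, and at most 3.61 and 3.21 FPKM in Victoria. Both were also DEGs against the other aromatic cultivars, with log2 fold changes of 5.13 with an SE of 0.61 (adjusted p = 0.000251) and 4.94 with an SE of 0.43 (adjusted p = 1.7e-05). The other 4 of the 10 largest rises, VIT_06s0004g01250, VIT_04s0023g02280, VIT_03s0063g01290 and VIT_12s0028g01360, had log2 fold changes of 5.37, 5.35, 5.09 and 4.70.

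The largest fall was that of VIT_09s0002g00580, with 0.612, 0.386 and 0.756 FPKM in Shine Muscat, against 50.5, 95.8 and 558 FPKM in Victoria. Victoria replicate 3 was far above the other Victoria libraries, and the log2 fold change was -6.48 with an SE of 0.82 (adjusted p = 0.00335). The other aromatic cultivars ranged from 0.0301 to 856 FPKM. The gene was a DEG in 2 of the 6 fits that left out 1 library. VIT_12s0034g01970 fell more evenly, with 0.255, 0.627 and 0.291 FPKM in Shine Muscat, against 73.05, 35.3 and 58.8 FPKM in Victoria, and the log2 fold change was -5.30 with an SE of 0.28 (adjusted p = 0.000189). It was higher still in the other aromatic cultivars, at 44.6 to 599 FPKM, where the log2 fold change was -7.07 with an SE of 0.72 (adjusted p = 6.53e-05), and Shine Muscat was below every other library. VIT_12s0028g03230 was listed at 0 in every Shine Muscat library, against 20.2, 22.9 and 22.2 FPKM in Victoria (adjusted p = 4.51e-05), and had 21.4 to 25.3 FPKM in Midknight Beauty. VIT_00s1569g00010 had 0.557, 0.261 and 0 FPKM in Shine Muscat, against 17.8, 21.8 and 31.9 FPKM in Victoria. VIT_03s0088g00700 and VIT_18s0166g00260 had log2 fold changes of -4.95 and -4.05, the first a DEG in 2 of the 6 fits that left out 1 library. Without Shine Muscat replicate 1, VIT_09s0002g00580 and VIT_03s0088g00700 did not pass.

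The other 4 of the 10 largest falls lay close together on chromosome 19, between VIT_19s0015g02590 and VIT_19s0015g02880, a stretch singled out after its values were seen. It lists 23 genes, of which 9 were tested and 10 were listed at 0 in all 6 libraries. Of the 9, 5 were lower DEGs and none a higher one. Lower DEGs made up 1.03% of all genes tested and 1.96% of those on chromosome 19. Both ends were drawn at DEGs, so this count was partly set by the choice of the stretch. VIT_19s0015g02880 had 173, 184 and 146 FPKM in Shine Muscat, against 2783, 2981 and 3615 FPKM in Victoria. VIT_19s0015g02590 had 82.2, 149 and 120.0 FPKM in Shine Muscat, against 2151, 2128 and 2635 FPKM in Victoria. VIT_19s0015g02690 had 11.5, 45.9 and 48.04 FPKM in Shine Muscat, against 739, 786 and 1167 FPKM in Victoria, with Shine Muscat replicate 1 below the other Shine Muscat libraries. These 3 genes were abundant in Victoria and lower, but well above 0, in Shine Muscat. VIT_19s0015g02730 had 0.951, 2.89 and 6.91 FPKM in Shine Muscat, against 124, 174 and 163 FPKM in Victoria, and VIT_19s0015g02700 had 0.812, 0.623 and 0.498 FPKM in Shine Muscat, against 13.2, 17.5 and 11.99 FPKM in Victoria. Log2 fold changes of the 5 ran from -3.20 to -5.29, with adjusted p from 6.74e-05 to 0.00213. VIT_19s0015g02680, in their midst, had 169, 99.95 and 133 FPKM in Shine Muscat, against 73.3, 56.8 and 104 FPKM in Victoria and did not pass (adjusted p = 0.0828). For VIT_19s0015g02880, Midknight Beauty overlapped Shine Muscat (96.02 to 299.5 FPKM), while Centennial Seedless (833 to 1155 FPKM) and Summer Black (637 to 907 FPKM) lay between Shine Muscat and Victoria.

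By level, the highest DEG in Shine Muscat was VIT_19s0014g02740, with 14330, 13150 and 14110 FPKM in Shine Muscat, against 3081, 1115 and 1315 FPKM in Victoria, and its neighbour VIT_19s0014g02730 had 1889, 1500 and 1524 FPKM in Shine Muscat, against 330.0, 128 and 150.4 FPKM in Victoria. The cultivars were far apart for both, with log2 fold changes of 3.07 with an SE of 0.41 (adjusted p = 0.00388) and 3.13 with an SE of 0.35 (adjusted p = 0.0022). Leaving out Shine Muscat replicate 1, or another library, raised their adjusted p above the threshold, so that they were DEGs in 2 and 3 of 6 such fits. VIT_03s0038g01930 had 2529, 1738 and 2536 FPKM in Shine Muscat, against 472, 421 and 377 FPKM in Victoria, and was a DEG in all 6. The other aromatic cultivars had 249 to 708 FPKM, with a log2 fold change of Shine Muscat over these of 2.56 with an SE of 0.28 (adjusted p = 0.00015). VIT_00s2840g00010 and VIT_10s0003g00090 had 1277, 1161 and 1196 FPKM and 1200, 1140 and 1262 FPKM in Shine Muscat, with log2 fold changes of 2.05 and 2.05 that fell below 2 after either other scaling. Of the genes that fell, VIT_01s0010g02030 was the highest in Victoria, with 2241, 2267 and 2354 FPKM in Shine Muscat, against 17050, 11530 and 10730 FPKM in Victoria. VIT_05s0049g00770 had 205, 250.2 and 165 FPKM in Shine Muscat, against 1724, 1964 and 2819 FPKM in Victoria, and the log2 fold change was -3.37 with an SE of 0.23 (adjusted p = 0.000402). VIT_08s0007g06040, at 565, 457 and 545 FPKM in Shine Muscat, against 1469, 1893 and 3756 FPKM in Victoria, was close to the threshold and a DEG in 1 of the 6 fits that left out 1 library. Neither VIT_01s0010g02030 nor VIT_08s0007g06040 passed without Shine Muscat replicate 1.

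Some genes were read in 1 cultivar and hardly in the other. At least 5 FPKM in each library of 1 cultivar and less than 0.5 FPKM in each library of the other were found for 66 genes, 45 on in Shine Muscat and 21 on in Victoria. These limits by themselves set a log2 fold change of more than 2, so only the adjusted p was left to decide the call. All of the 45 and 20 of the 21 were DEGs, the exception being VIT_08s0040g00490 (adjusted p = 0.0117), at 6.13, 6.14 and 38.8 FPKM in Victoria. The off cultivar was listed at 0 throughout for 13 and 10 of them. With limits of 10 and 1 FPKM, there were 37 such genes, 23 on in Shine Muscat and 14 on in Victoria. Without Shine Muscat replicate 1 there were 69, but this count cannot fall when a library is left out.

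Of the 45 genes on in Shine Muscat, 33 did not reach 5 FPKM in all 3 libraries of any of the other aromatic cultivars, 7 did so in Summer Black, 4 in Midknight Beauty, 3 in Centennial Seedless and none in all of these. In 8 of them all 9 other aromatic libraries were below 0.5 FPKM too. VIT_11s0052g00230 had 19.97, 20.6 and 17.97 FPKM in Shine Muscat and was listed at 0 in the other 12 libraries. VIT_10s0003g03650 and VIT_10s0003g03530 had 14.7, 9.19 and 14.1 FPKM and 8.198, 6.396 and 7.73 FPKM in Shine Muscat, VIT_18s0072g00030 had 7.73, 6.17 and 11.4 FPKM, and all 3 were listed at 0 in the other 12 libraries. VIT_19s0014g01600 had 30.1, 20.3 and 22.9 FPKM in Shine Muscat, against 0.0368, 0.234 and 0 FPKM in Victoria, with 0 to 0.03202 FPKM over the other aromatic cultivars. VIT_12s0028g00920 had 27.1, 26.4 and 26.5 FPKM in Shine Muscat, against 0, 0.267 and 0 FPKM in Victoria, and 2.92 to 63.2 FPKM in Summer Black. VIT_09s0002g01060 had 32.4, 22.3 and 24.1 FPKM in Shine Muscat, against 0.299, 0.242 and 0 FPKM in Victoria, and 12.8 to 51.1 FPKM in Midknight Beauty.

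The 21 genes on in Victoria did not all stand alone: 8 were on in Midknight Beauty, 7 in Centennial Seedless and 4 in Summer Black, 2 of them in all of these, and 11 in none. VIT_11s0065g01050 was listed at 0 in every Shine Muscat library, against 10.6, 11.6 and 8.04 FPKM in Victoria, and had 11.1 to 20.4 FPKM over the other aromatic cultivars (adjusted p = 7.13e-08 for Shine Muscat against these), with Shine Muscat alone at 0. VIT_03s0097g00460 had 0.239, 0.05997 and 0.136 FPKM in Shine Muscat, against 8.95, 9.68 and 16 FPKM in Victoria, and 6.56 to 53.9 FPKM in the others. VIT_11s0052g01230 stood at the other end, with 0.32, 0.207 and 0.437 FPKM in Shine Muscat, against 10.4, 13.9 and 13.1 FPKM in Victoria, and at most 0.0556 FPKM elsewhere.

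**Figure D3:**
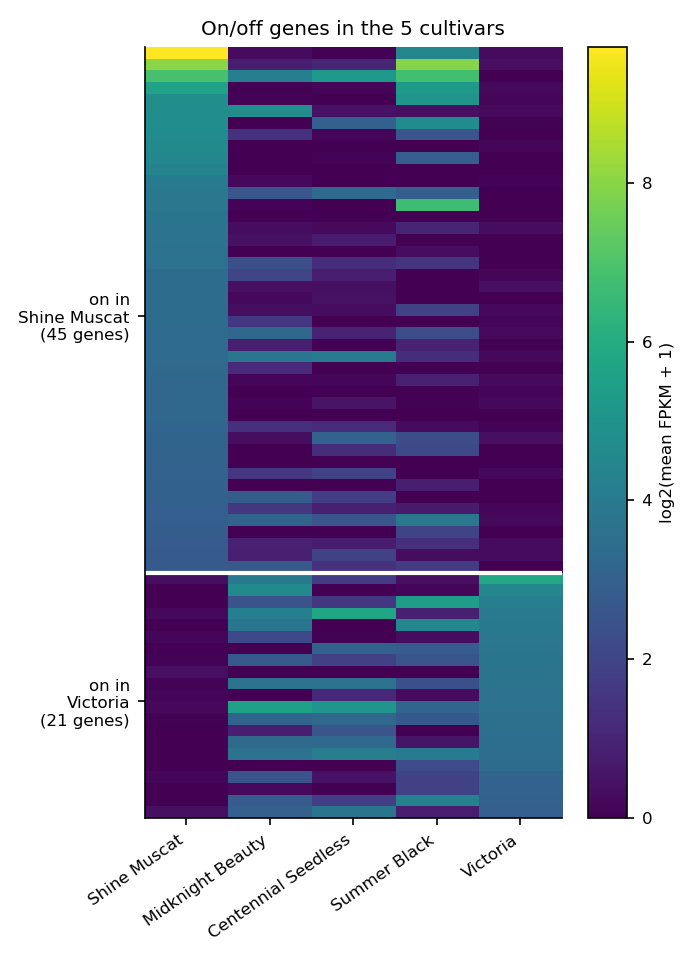
Mean level, as log2(mean FPKM + 1), of the 45 genes on in Shine Muscat (above the white line) and the 21 on in Victoria (below it) in the 5 cultivars, sorted within a block by the level in the cultivar that is on. By the rule of 5 FPKM in every library of a cultivar, 33 of the 45 upper rows were on in none of the middle cultivars. The same held for 11 of the 21 lower rows. The colours show means, which can pass 5 FPKM where a single library does not.

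The other 9 libraries place each DEG among the 5 cultivars. Of the 229 higher DEGs, all 3 Shine Muscat libraries lay above all 12 others in 132, all 3 Victoria libraries lay below all 12 others in 23, both held in 14 and neither in 60. Of the 187 lower DEGs, Shine Muscat lay below all 12 others in 49, Victoria above all 12 others in 44, both held in 10 and neither in 84. Over all genes tested, Shine Muscat alone lay above in 8.78% and below in 2.70%, and Victoria alone below in 1.18% and above in 1.33%. As a test that used no Victoria library, Shine Muscat was compared with the 9 libraries of the other aromatic cultivars taken as 1 group, so that differences among these cultivars counted as error. This gave 157 DEGs (0.861% of the genes tested), 115 higher (0.631%) and 42 lower (0.23%) in Shine Muscat. Both comparisons share the Shine Muscat libraries. Of the 229 genes higher than in Victoria, 77 were also higher in that test, of the 187 lower genes 20 were also lower, and none went the other way. Without Shine Muscat replicate 1 the test gave 84 DEGs, and without replicate 3 it gave 92.

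**Figure D4:**
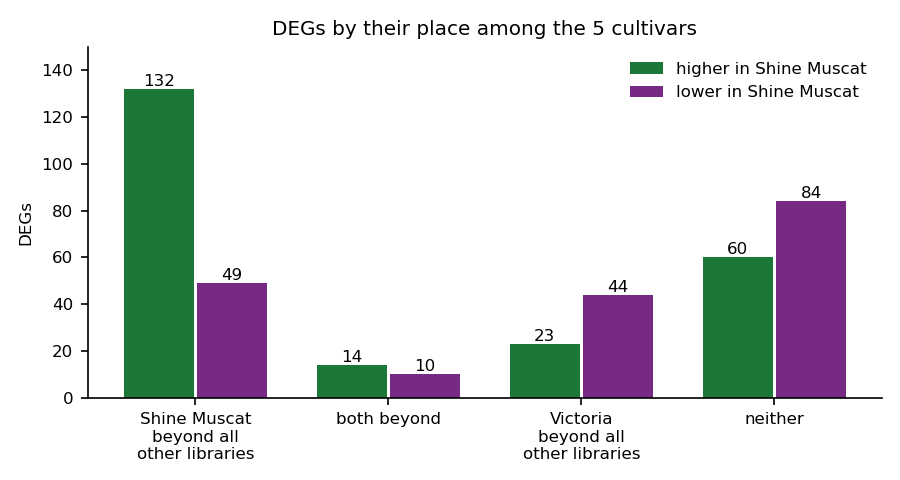
Number of DEGs between Shine Muscat and Victoria by their place among the 5 cultivars, for the 229 higher (green) and 187 lower (purple) genes. Shine Muscat alone lies beyond the other 12 libraries in 132 of the higher and 49 of the lower DEGs, Victoria alone in 23 and 44.

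DEGs of 1 direction stood side by side in 7 runs of 3 or more genes of 1 scaffold, at most 50 apart in the gene number. The runs held 24 genes in all, with 4 runs higher and 3 lower in Shine Muscat. Each run begins and ends at a DEG, so the counts of DEGs within it were partly set by this choice. Over all genes tested, 1.26% were higher and 1.03% lower DEGs. On chromosome 5, VIT_05s0077g02000, VIT_05s0077g02010 and VIT_05s0077g02020 all rose. VIT_05s0077g02000 and VIT_05s0077g02010 had 6.79, 6.96 and 7.41 FPKM and 2.95, 3.66 and 2.86 FPKM in Shine Muscat and were listed at 0 in every Victoria library. On chromosome 12, VIT_12s0034g01050 to VIT_12s0034g01070 rose likewise, the middle gene with 11.4, 12.2 and 10.4 FPKM in Shine Muscat and listed at 0 in Victoria. On chromosome 6, 5 of the 8 genes tested from VIT_06s0004g05330 to VIT_06s0004g05430 rose. VIT_06s0004g05380 had 366, 271 and 337 FPKM in Shine Muscat, against 54.05, 49.7 and 45.7 FPKM in Victoria, and VIT_06s0004g05370 had 19.6, 21.9 and 21.03 FPKM in Shine Muscat, against 0.948, 1.38 and 0.764 FPKM in Victoria. Of the genes not called between them, VIT_06s0004g05350 had a log2 fold change of 1.95 and VIT_06s0004g05400 one of 1.15, both past the test but not the fold threshold, and VIT_06s0004g05360 was near 0 in both cultivars. On chromosome 19, VIT_19s0014g04470, VIT_19s0014g04510 and VIT_19s0014g04540 rose, while VIT_19s0014g04520 between them fell, listed at 0 in Shine Muscat, against 3.64, 4.61 and 3.19 FPKM in Victoria.

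The first of the lower runs lay on an unplaced sequence, where each of the 4 genes tested from VIT_00s0160g00100 to VIT_00s0160g00130 fell. VIT_00s0160g00100 had 0.969, 1.09 and 0.886 FPKM in Shine Muscat, against 20.4, 28.7 and 25.7 FPKM in Victoria. The 4 log2 fold changes ran from -2.71 to -3.70, and the other aromatic cultivars had at most 6.904 FPKM for any of the 4, so Victoria was the highest cultivar in each. On chromosome 18, VIT_18s0041g01650, VIT_18s0041g01680 and VIT_18s0041g01700 were listed at 0 in every Shine Muscat library, as was VIT_18s0041g01690, and VIT_18s0041g01700 had 5.84, 8.29 and 6.78 FPKM in Victoria. The third run was that of VIT_19s0015g02690 to VIT_19s0015g02730 described above. After median-of-ratios scaling there were 13 genes in 1 higher and 3 lower runs. A limit of 10 in the gene number also gave 13 genes, while leaving out Victoria replicate 3 gave 37 and leaving out Shine Muscat replicate 1 gave 20. Neighbouring genes can be copies of each other, so the division of reads among them is uncertain.

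**Figure D5:**
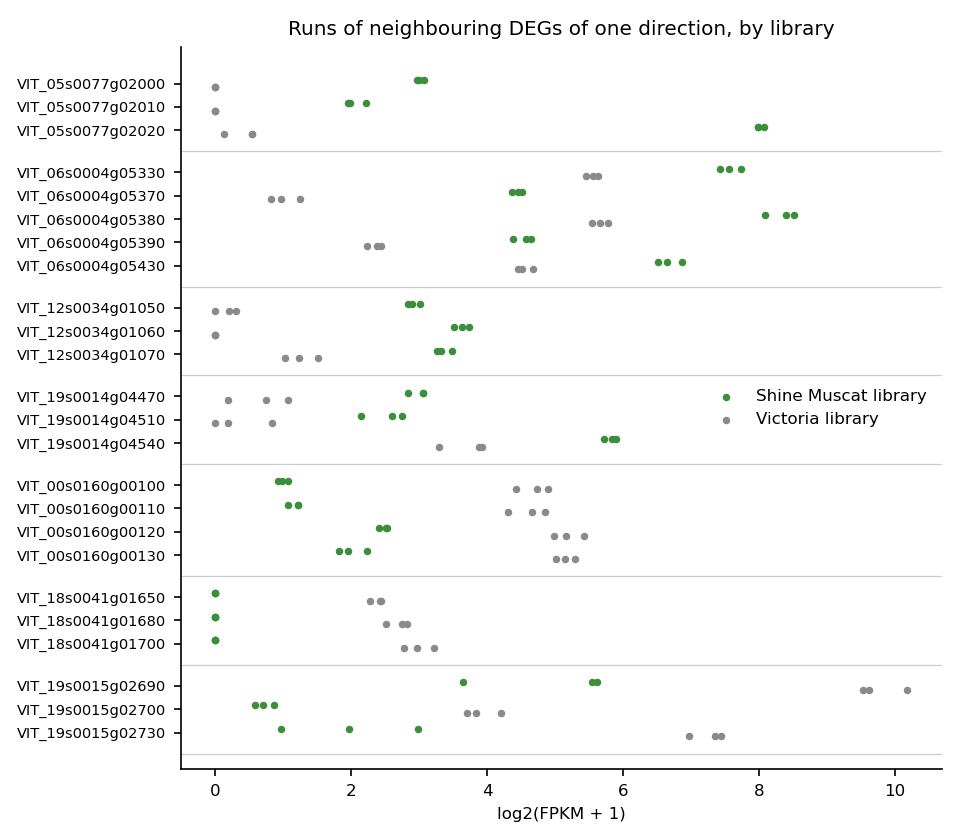
Level in each Shine Muscat (green, upper) and Victoria (grey, lower) library, as log2(FPKM + 1), for the 24 genes of the 7 runs, in gene order and with a line after each run. Shine Muscat lies right of Victoria in the upper 4 runs and left of it in the lower 3, at 0 throughout in the run of chromosome 18.

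Genes that the authors assembled newly from the reads made up 745 of the genes tested, and 35 of these (4.70%, against 2.28% of all genes tested) were DEGs, 16 higher and 19 lower in Shine Muscat. Because the reads that built these genes also gave their values, their share of DEGs is not independent support. newGene_1409 had the largest rise among them, with 26.1, 28.3 and 31.1 FPKM in Shine Muscat, against 0, 0.187 and 1.37 FPKM in Victoria. newGene_3148 had 12.1, 9.35 and 8.12 FPKM in Shine Muscat, against 0, 0.0527 and 0 FPKM in Victoria, and newGene_1394 had 12.1, 6.77 and 8.57 FPKM in Shine Muscat and was listed at 0 in Victoria. These 3 were DEGs against the other aromatic cultivars too. newGene_593 had 0, 0.0987 and 0 FPKM in Shine Muscat, against 10.6, 12.2 and 10.1 FPKM in Victoria, and 4.67 to 9.5 FPKM in the others, and the log2 fold change of Shine Muscat over these was -2.96 with an SE of 0.20 (adjusted p = 1.82e-06). newGene_1829 and newGene_84 were listed at 0 in Shine Muscat, against 11.03, 10.3 and 8.12 FPKM and 8.39, 8.29 and 5.3 FPKM in Victoria. By chromosome, the share of genes tested that rose ran from 0.524% (3 of 573) on chromosome 15 to 2.44% (17 of 698) on chromosome 3, and the share that fell from 0.175% (1 of 573) on chromosome 15 to 1.96% (15 of 766) on chromosome 19.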

How the data were processed

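Skin libraries of Shine Muscat and Victoria, 3 each, were compared. The deposited table gives FPKM, which the authors computed after mapping clean reads to the grapevine reference PN40024. The methods name Bowtie2 and RSEM, the submitters' processing notes HISAT2 and StringTie, so the aligner is uncertain. The methods name NEBNext libraries, the labels RNeasy and SMARTER kits. FPKM divides by gene length and library total, so a few abundant genes can shift all others. Of the ratios between libraries of values below 0.1 FPKM, at most 6.60% fell in any log2 bin of 0.02. No expected share was set beside this, so whether such values are whole multiples of a step was not settled. Reads per gene were not recovered. The study states mapped reads per library, fewest in Shine Muscat replicate 1. Replicate numbers were not used to pair the libraries in the main fit.

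Genes that reached 1 FPKM in 3 or more of the 15 libraries entered the comparison on log2(FPKM + 1), fitted with limma 3.58.1 (eBayes with trend, two-sided, Benjamini-Hochberg over all 18238 genes) in R 4.3.3, and described with Python 3.11.15, numpy 2.4.6, pandas 2.3.3 and matplotlib 3.10.9. The script was tested on simulated data. The thresholds, a log2 fold change of 2 and an adjusted p of 0.01, are those of the study's results section. Its methods give others, tried as an alternative. Further alternatives were a pseudocount of 0.1, no filter or one at 5 FPKM, other scalings, a variance without trend, a fit of all 5 cultivars, a replicate block, other limits for on/off genes and runs, and each library left out. Leaving out libraries for on/off genes and runs was added after seeing the data.

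Genes were named if the study gives them with an identifier, if they were among the 10 DEGs that changed most upward or downward, the 5 highest DEGs of a direction or the 3 newly assembled DEGs that changed most each way, or if they lay in a run. On/off genes and neighbours printed beside these, and the stretch of chromosome 19, were chosen after their values were seen. The members and lists were chosen with earlier results of these data known. The RefSeq list of 29591 grapevine genes held 0 of the identifiers, so lists that need a description were not used here. Primers were copied from the study's primer list.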

Additional observations from a re-analysis of the deposited data

How the results depend on the processing

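Read counts per gene were not used, the replicates may differ in sampling time, and aroma cannot be told apart from other differences between 2 cultivars. These limits hold for every result. The 416 DEGs became 904 with a pseudocount of 0.1 (452 in either direction), 986 with a log2 fold change of 1 and an adjusted p under 0.005 (601 higher, 385 lower), and 1768 with no fold threshold (1116 higher, 652 lower). A filter at 5 FPKM gave 354, no filter 297, dropping the variance trend 406, fitting all 5 cultivars together 443, median-of-ratios scaling 406 and quantile normalization 416. Leaving out 1 library gave 262 to 484, the lowest without Shine Muscat replicate 1 and the highest without Victoria replicate 1, where the split was 204 higher and 280 lower. Libraries were not taken as pairs by replicate number in the main fit. Deviations from the cultivar means correlated at -0.02, 0.10 and 0.06 for equal numbers, not above 0.1 in every pair. With 3 libraries per cultivar this cannot exclude an effect shared by equal numbers. Shine Muscat replicates 2 and 3 correlated best with their own number and replicate 1 with Victoria replicate 3 (0.05). With the replicate block there were 317 DEGs (185 higher, 132 lower), 316 of them shared with the fit without it. Of the 20 candidates, 9 to 14 were DEGs over the alternatives that tested all 20 and 9 to 12 with a library left out. The filter at 5 FPKM tested 15 of them and gave 8. Shine Muscat against the other aromatic cultivars gave 157 DEGs, 282 with a pseudocount of 0.1 and 84 to 166 with a library left out. On/off genes numbered 66, and 37 at 10 and 1 FPKM. With a library left out they numbered 69 to 81, but the same limits on fewer libraries cannot lower the count. Genes in runs numbered 24, 13 at a limit of 10 or after median-of-ratios scaling, 29 at a limit of 100, and 18 to 37 with a library left out. No named gene changed sign where it was called. Of 115 named DEGs, 94 kept their call in every alternative and 94 in every fit without a library, and the cause of the other changes was not tested.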
